A study of Homo sapiens with 70 samples.

Results

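The genes described here are 34 of the 78932 genes in the table. They encode the enzymes and carriers that bring pyruvate into mitochondria, run the tricarboxylic acid (TCA) cycle and handle the same metabolites in the cytosol. Members were chosen by name: MPC1, MPC2, PDHA1, PDHB, DLAT, PDHX, DLD, PDP1, PC, CS, ACO1, IDH1, IDH2, IDH3A, IDH3B, IDH3G, OGDH, DLST, SUCLA2, SUCLG1, SUCLG2, SDHA, SDHB, SDHC, SDHD, SDHAF2, FH, MDH1, MDH2, ME1, ME2, ACLY, GOT1 and GOT2. Of these 28 act in mitochondria and 6 (ACO1, IDH1, MDH1, ME1, ACLY and GOT1) in the cytosol. All 34 passed the filter on low counts in every fit, and the lowest count of any member in any library was 96.

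Poly(A) RNA came from MIA PaCa-2, an established line of pancreatic ductal adenocarcinoma, here resistant to sotorasib, a cancer drug. All cells carried dCas9-KRAB, a dead Cas9 fused to a repressor domain that doxycycline (DOX) switches on and that a guide RNA leads to a promoter. The 3 guide lines were sgZBTB11 #1 and sgZBTB11 #2, which target the zinc finger factor ZBTB11, and sgNS, the control. Each line was given DMSO or DOX and collected at 5 hr, day 1, day 3 and day 5, which makes 24 groups and 70 libraries. Of the groups, 22 had 3 libraries, and 2 libraries each made up the DMSO groups of sgNS at day 1 and of sgZBTB11 #1 at day 5. A single line and a single control guide stand for the condition, and the labels say neither whether the lines are clones nor whether sotorasib was present. Whether the libraries within a group are separate cultures is not stated, and p-values therefore speak only of the spread among the libraries at hand, possibly technical.

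Pyruvate from glycolysis enters mitochondria through the carrier MPC1-MPC2 and is turned into acetyl-CoA by the pyruvate dehydrogenase complex. Citrate synthase joins acetyl-CoA to oxaloacetate, and the cycle then oxidises citrate back to oxaloacetate by way of 2-oxoglutarate, succinyl-CoA, succinate, fumarate and malate, passing electrons to NADH and, at succinate dehydrogenase, straight to the respiratory chain. Several steps have a cytosolic counterpart, which serves NADPH supply, lipid synthesis or the malate-aspartate shuttle. Pancreatic cancer cells are known to draw on the cytosolic GOT1, MDH1 and ME1 route for redox balance.

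Total counts were 12068842 to 20627642 per library. ZBTB11 was 52.7 ± 1.33 CPM (counts relative to the TMM-scaled library total; SD, n = 3) with DMSO and 28.3 ± 0.441 with DOX in sgZBTB11 #2 at day 5, 48.7 (n = 2) and 36.3 ± 1.78 (n = 3) in sgZBTB11 #1, and 56.1 ± 4.57 and 50.8 ± 3.44 in sgNS (n = 3). The epithelial and mesenchymal markers KRT8, KRT18, KRT19 and VIM were present in all libraries at 44.6 TPM (a length-corrected share of transcripts) or more. Of the markers of other cell types, INS, PRSS1, CD3E, PTPRC, LYZ and PECAM1 had a median TPM of 0, and COL1A1 and ALB stayed at or under 1.44. CDKN2A, which is deleted in this line, was at 0 in 70 of 70 libraries. The share of counts from mitochondrial DNA differed between groups and is given beside the results it moved with.

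The sequences just before the start of MDH2 and MDH1 are shown first, as both genes serve the same reaction. They were chosen after the levels of both genes over time were known, and their part in those levels was not tested. They are from RefSeq, build GRCh38.p14, the 250 bases before the gene's start in that table, 5′ to 3′ on the gene's strand. Capitals mark exact matches to CCGGAAGT on either strand, a longer form of the site bound by ETS factors. MDH2 has 2 matches, 113 and 69 bases before the start, and MDH1 has none in this window. Shorter or variant forms of the site were not searched.
MDH2, chr7:76047856-76048105, plus strand: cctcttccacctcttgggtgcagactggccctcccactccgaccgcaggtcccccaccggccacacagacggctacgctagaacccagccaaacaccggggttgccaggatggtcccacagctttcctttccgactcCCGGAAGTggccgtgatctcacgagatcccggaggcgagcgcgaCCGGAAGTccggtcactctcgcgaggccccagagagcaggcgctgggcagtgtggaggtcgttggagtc
MDH1, chr2:63588713-63588962, plus strand: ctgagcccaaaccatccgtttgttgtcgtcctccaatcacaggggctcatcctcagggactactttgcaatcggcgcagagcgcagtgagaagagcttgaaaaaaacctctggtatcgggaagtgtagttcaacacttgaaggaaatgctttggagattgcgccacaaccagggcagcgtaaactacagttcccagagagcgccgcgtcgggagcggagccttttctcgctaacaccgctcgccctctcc

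The other members with this match were DLST, IDH3B, SDHAF2 and SDHD, shown as the stretch around it for comparison with MDH2.
DLST, chr14:74881867-74881915, plus strand: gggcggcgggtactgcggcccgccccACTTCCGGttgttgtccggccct
IDH3B, chr20:2664223-2664282, minus strand: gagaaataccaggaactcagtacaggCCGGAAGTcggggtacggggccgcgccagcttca
SDHAF2, chr11:61429995-61430054, plus strand: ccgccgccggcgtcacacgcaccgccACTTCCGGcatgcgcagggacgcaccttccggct
SDHD, chr11:112086769-112086828, plus strand: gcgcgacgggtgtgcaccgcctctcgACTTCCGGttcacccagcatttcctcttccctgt

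Of the 34 members 31 matched an entry of the promoter table, taken as the most upstream where a gene had several. For 28 it sat at the 5′ end of the gene's span, but those of PDHX, IDH2 and ACLY started 518, 1847 and 11523 bases inside it, so for these the window is not the sequence before the gene. Of the 31 windows 5 held CCGGAAGT, or 16.1%, against 3.64% of all 27305 promoters of that length. Those include genes not tested here, while all members are expressed, and the share among expressed genes was not computed. The core motif of NRF1, a palindrome searched without mismatch, was in the window of 1 member, SDHD, against 1.13% of all, without overlapping the ETS match. The E-box CACGTG was in the window of 1 member, PDHB, against 6.46% of all. These matches are letters in a window and no evidence of binding. Of the 5 members with the ETS match, MDH2, IDH3B, SDHAF2 and SDHD were lower in CPM at day 5 than at day 1. This held with DMSO in all 3 lines, and DLST was higher in CPM but not in mean TPM (29.6 at day 1, 25.6 at day 5). By the same rule in CPM 29 of all 34 members and 42.5% of all genes were lower. Whether the match bears on these changes was not tested. At day 5 IDH3B was at 43.4% to 49.9% of its day 1 level, SDHAF2 at 46.8% to 58.6% and SDHD at 34.1% to 44.5%.

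Levels of the members spanned a wide range in DMSO cells at day 1 (TPM, which accounts for length; n = 8 libraries). MDH2, the mitochondrial malate dehydrogenase, was highest at 237 ± 8.73 (SD), followed by PDHA1, the catalytic alpha subunit of pyruvate dehydrogenase, at 212 ± 6.74 and the cytosolic MDH1 at 188 ± 6.97, with ranges that did not overlap. The succinate dehydrogenase subunits SDHA, SDHC, SDHD and SDHB followed at 141 ± 6.33, 137 ± 11.7, 113 ± 8.39 and 112 ± 4.57, and the ranges of neighbours overlapped. Citrate synthase, CS, was at 80.2 ± 5.65 and fumarate hydratase, FH, at 67.1 ± 3.79. Between FH and the next member, ACLY, which cleaves exported citrate for lipid synthesis (56.5 ± 4.06), the ranges did not overlap. At the low end stood ME1, the cytosolic malic enzyme (5.44 ± 0.643), ACO1, the cytosolic aconitase (5.34 ± 0.653), and PC, pyruvate carboxylase, which refills oxaloacetate (4.99 ± 0.496). These 3 overlapped each other and lay below DLAT, the acetyltransferase core of the pyruvate dehydrogenase complex (17.5 ± 2.5).

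The largest differences among these genes came with time, in cells that received only DMSO. From day 1 to day 3 28 members fell, 1 rose and 5 did not pass, against 79.8% of all 17598 genes called in either direction (38.4% lower and 41.4% higher; edgeR quasi-likelihood test, adjusted p under 0.05). The median log2 change of the members was -0.60, and that of all genes tested 0.05. All libraries of day 3 lay below all of day 1 for 25 members, against 25.6% of all genes. The median fall of the 28 mitochondrial members was -0.61 and that of the 6 cytosolic ones -0.32.

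MDH2, which closes the cycle by oxidising malate, fell most. Its CPM in the DMSO libraries was 366 to 419 with a median of 387 at 5 hr (n = 9), 381 to 413 with a median of 398 at day 1 (n = 8), 117 to 153 with a median of 139 at day 3 (n = 9), and 64.3 to 74.9 with a median of 69.8 at day 5 (n = 8). No library of day 3 reached the lowest of day 1, and none of day 5 the lowest of day 3. The log2 change was -1.54 from day 1 to day 3 (SE 0.0201, edgeR adjusted p = 7.81e-53) and -0.99 from day 3 to day 5 (SE 0.0238, 3.05e-39). At day 5 MDH2 stood at 16.7% of its day 1 level in sgNS, 16.8% in sgZBTB11 #1 and 18.6% in sgZBTB11 #2.

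CS, SUCLG1 and SDHB followed MDH2 in size from day 1 to day 3. CS, the entry enzyme of the cycle, went from a median of 199 CPM (193 to 204) to 84.6 (80.5 to 91.8), a log2 change of -1.19 (SE 0.0197, adjusted p = 5.22e-48). SUCLG1, the alpha subunit that both succinyl-CoA ligases share, went from 81 (75.2 to 91.4) to 39.6 (33.2 to 43.03), a change of -1.09 (SE 0.0286, 1.93e-38). SDHB, the iron-sulfur subunit of succinate dehydrogenase, went from 91.5 (86.4 to 98.6) to 45.2 (44.4 to 47.9), a change of -0.99 (SE 0.0259, 1.59e-38). In each of these genes the libraries of both times did not overlap.

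By step, all 3 subunits of succinyl-CoA ligase fell from day 1 to day 3, as did FH, MDH1 and MDH2, both aspartate aminotransferases, both malic enzymes, both pyruvate carrier subunits and 4 of 5 isocitrate dehydrogenase genes. In the pyruvate dehydrogenase complex with its phosphatase 5 of 6 members fell, with the catalytic core gene DLAT at -0.70 (SE 0.0359) and the shared subunit DLD at -0.62 (SE 0.027). PDHB, which pairs with PDHA1, was at 0.02 (SE 0.0262, adjusted p = 0.509) and did not pass. The others that did not pass were SDHC, a membrane anchor of succinate dehydrogenase, at 0.02 (SE 0.0308, 0.602), PC at 0.01 (SE 0.0487, 0.811), DLST, the succinyltransferase of the 2-oxoglutarate dehydrogenase complex, at -0.05 (SE 0.0261, 0.0978), and ACO1 at -0.08 (SE 0.0456, 0.126).

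IDH1, the cytosolic NADP-dependent isocitrate dehydrogenase, was the 1 member that rose from day 1 to day 3. Its CPM was 27.7 to 33.9 with a median of 32.6 at 5 hr, 42.7 to 53.8 with a median of 49.4 at day 1, 62.95 to 72.7 with a median of 64.7 at day 3, and 52.8 to 67.6 with a median of 57.7 at day 5. Day 1 lay above 5 hr and day 3 above day 1 with no overlap, and day 5 overlapped with day 3. The log2 change was 0.62 from 5 hr to day 1 (SE 0.0363, adjusted p = 6.32e-22), 0.48 from day 1 to day 3 (SE 0.0323, 7.94e-20) and -0.20 from day 3 to day 5 (SE 0.0316, 2.84e-07).

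**Figure D1:**
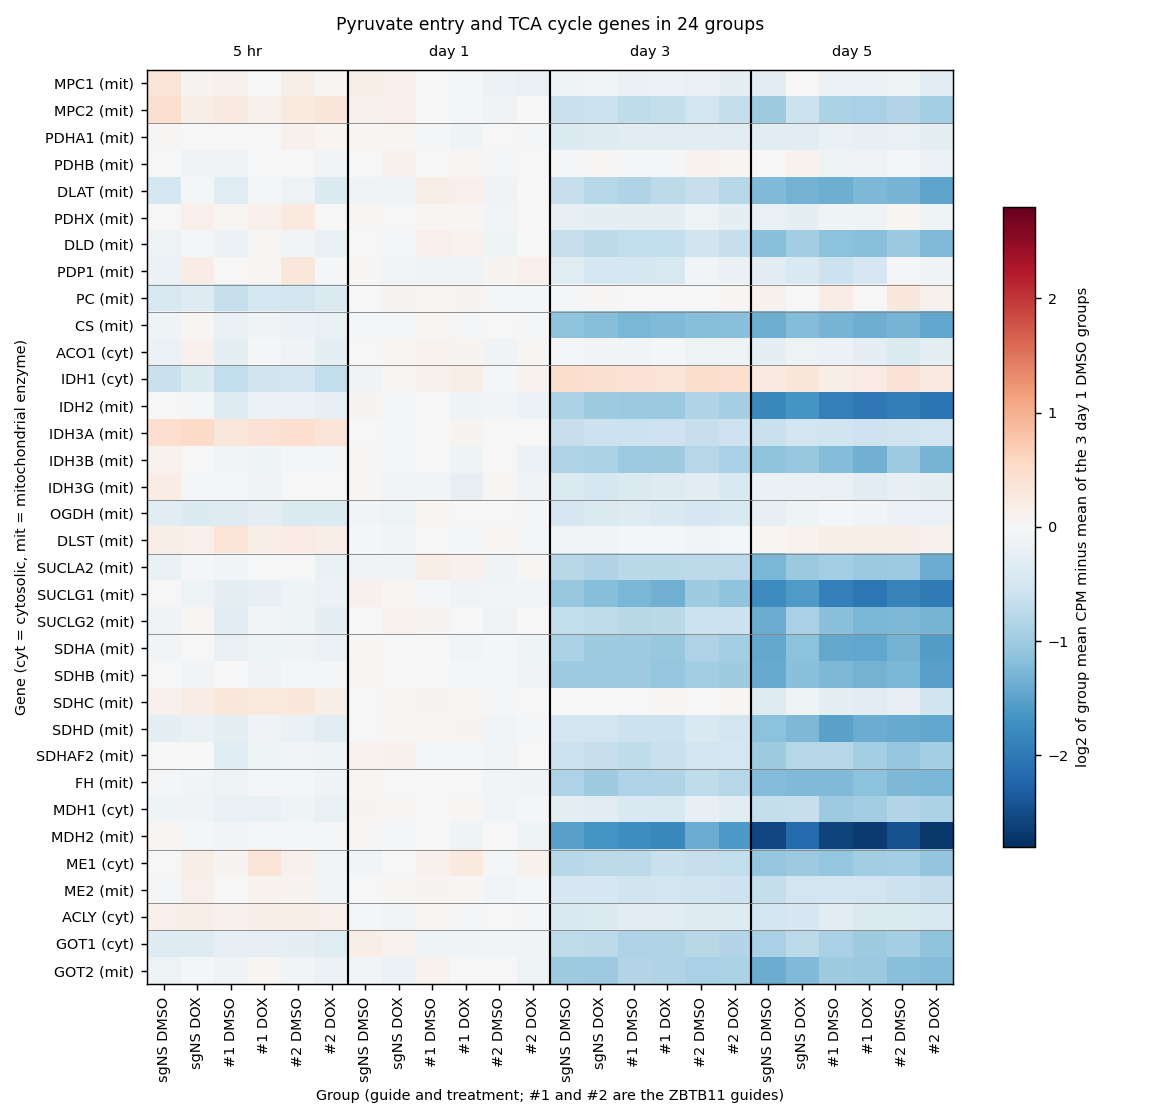
Each row is a member and each column 1 of 24 groups, ordered by time, guide and treatment; color is the log2 of the group's mean CPM minus the mean of the day 1 DMSO groups. The columns of day 3 and day 5 are blue in most rows and darkest for MDH2, while IDH1 is red there, and columns within a time look much alike.

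From day 3 to day 5 25 members fell, 6 rose and 3 did not pass, against 65.3% of all genes called. The median of the members was -0.26 and that of all genes -0.02. After MDH2, IDH2, the mitochondrial NADP-dependent isocitrate dehydrogenase, fell by 0.98 (SE 0.0417, adjusted p = 6.35e-28), SDHD, the other membrane anchor of succinate dehydrogenase, by 0.86 (SE 0.0276, 2.25e-33), and SUCLG1 by 0.75 (SE 0.0361, 1.76e-25). Of the 2-oxoglutarate dehydrogenase complex, OGDH rose by 0.29 (SE 0.0273, 1.14e-13) and DLST by 0.19 (SE 0.0259, 6.94e-09), while DLD, which it shares with the pyruvate dehydrogenase complex, fell by 0.51 (SE 0.0308, 3.68e-21). PC rose by 0.19 (SE 0.048, 0.000493). In limma on log2(TPM + 1), where the median of all genes was -0.18, 2 members rose and 27 fell in this step, and DLST and PC were below 0.

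From 5 hr to day 1 18 members rose and 8 fell, against 67.2% of all genes called, with a median of 0.09 for members and 0.01 for all genes. Behind IDH1 the largest were PC at 0.54 (SE 0.052, adjusted p = 1.16e-13), IDH3A, the catalytic subunit of the NAD-dependent isocitrate dehydrogenase, at -0.41 (SE 0.0289, 2.16e-18), and OGDH at 0.37 (SE 0.0266, 4.33e-18). In this step MDH2 was at 0.03 (SE 0.0187, 0.132) and did not pass. In limma on log2(TPM + 1), where the median of all genes was 0.13, 27 members were higher and 2 lower.

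Over the whole span from day 1 to day 5, 29 members were lower in all 3 DMSO lines, 3 higher in all 3 and 2 mixed, where 42.5% of all genes were lower and 43.4% higher. With DMSO 12 members stood under 50% of day 1 in every line, against 11.1% of all genes, and of the members MDH2 alone under 25%, against 1.96% of all genes. IDH2 was at 26.3% to 27.3% and SUCLG1 at 27.2% to 29%. The 3 that were higher were IDH1 (105% to 136%), PC (109% to 124%) and DLST (108% to 112%). These counts and percentages are of mean CPM. In mean TPM with DMSO, DLST went from 29.6 at day 1 to 25.6 at day 5, PC from 4.99 to 4.66 and IDH1 from 25.2 to 26.3. On log2(TPM + 1) the median change of all genes was 0.05 from day 1 to day 3 and -0.18 from day 3 to day 5. SDHA and SDHB, under 50% in CPM, went from 141 to 104 and from 112 to 78.2 in TPM. MDH2 fell on both scales, from 237 to 38.6 in TPM.

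Mitochondrial and cytosolic isoforms of the same reaction stood in different proportion at different times. The ratio of MDH2 to MDH1 per library, in TPM, had a median of 1.40 at 5 hr (1.275 to 1.46, n = 9), 1.25 at day 1 (1.21 to 1.33, n = 8), 0.53 at day 3 (0.48 to 0.58, n = 9) and 0.26 at day 5 (0.25 to 0.30, n = 8) with DMSO. With DOX the day 5 median was 0.26 (0.24 to 0.30, n = 9). No library of day 3 or day 5 had more MDH2 than MDH1, and every library of 5 hr and day 1 had. The ratio of IDH2 to IDH1 went from 2.47 at 5 hr (2.27 to 3.66) through 1.71 (1.55 to 2.29) and 0.76 (0.68 to 0.90) to 0.44 at day 5 (0.35 to 0.47).

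The other pairs moved less. GOT2 to GOT1, the mitochondrial and cytosolic aspartate aminotransferases, had medians of 2.44, 2.39, 2.09 and 1.85 in the order of time, and the ranges of neighbouring times overlapped. The lines differed here: from 5 hr to day 1 this ratio went from 2.44 to 2.67 down to 1.795 to 1.82 in sgNS and from 2.07 to 2.36 up to 2.53 to 2.69 in sgZBTB11 #1. ME2 to ME1, the mitochondrial and cytosolic malic enzymes, had medians of 8.24, 8.14, 9.29 and 11, so that here the mitochondrial gene kept the larger share. These ratios are descriptions without a test.

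**Figure D2:**
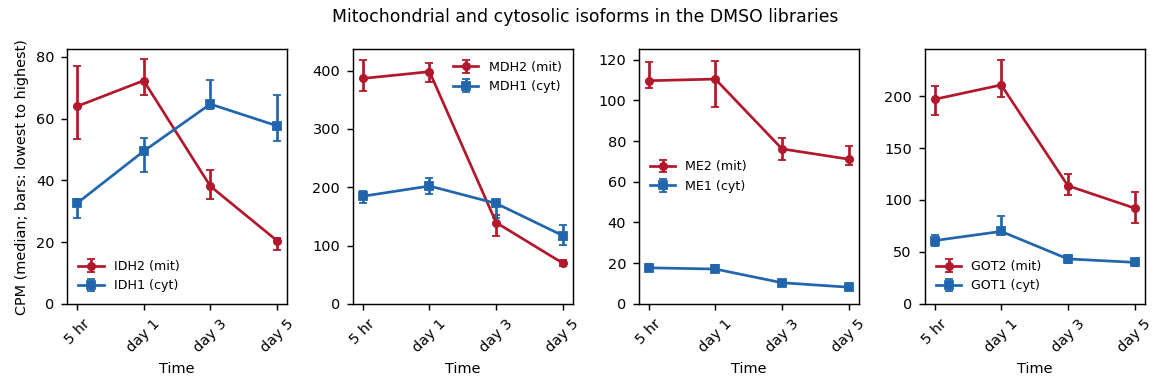
Points are the median CPM of the DMSO libraries at each time and bars run from the lowest to the highest library, with mitochondrial genes in red and cytosolic genes in blue. The IDH2 and IDH1 lines cross between day 1 and day 3, MDH2 falls from above MDH1 to below it, and ME2 and GOT2 stay above their partners.

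Some of these values depend on how RSEM spread reads over transcripts. The count divided by the TPM gives the length RSEM used, here relative to the median tested gene of the same library. For MDH2 it was 0.866, 0.888, 0.893 and 0.885 in the order of time, within a factor of 1.03. For MDH1 it was 0.568, 0.573, 0.579 and 0.396, and dividing CPM by 1 fixed length gave a mean MDH2 to MDH1 ratio of 0.389 at day 5 in place of 0.269. For SDHB it was 0.446, 0.432, 0.416 and 0.232, and its change from day 3 to day 5, -0.33 in counts (SE 0.0302, adjusted p = 4.53e-14), was 0.31 in limma on log2(TPM + 1) (9.74e-08).

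SDHA, the flavoprotein subunit of succinate dehydrogenase, is the most uncertain member. Its relative length was 0.641, 0.853, 0.529 and 0.409 in the order of time, and its change from day 1 to day 3 was -0.91 in counts (SE 0.0208, adjusted p = 3.39e-41) but -0.12 in limma on log2(TPM + 1) (0.00508). The near-identical copies SDHAP3 and SDHAP1 held 117% and 32% of the counts of SDHA, and they rose from day 1 to day 3 by 0.49 (SE 0.0181, 1.77e-31) and 0.52 (SE 0.0301, 2.12e-22). The part of read sharing between these copies in the values of SDHA was not tested. For no other member did a named pseudogene reach 1% of its counts, and SUCLG2-DT, a divergent transcript, held 10.5% of the counts of SUCLG2, the GTP-forming ligase subunit, and GOT1-DT 6.11% of GOT1.

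The share of all counts from mitochondrial DNA moved with time as well. With DMSO it had a median of 14% at 5 hr (12.5% to 14.3%), 10.4% at day 1 (10.1% to 12.4%), 18.4% at day 3 (17.8% to 22.2%) and 31.1% at day 5 (26% to 33.7%). Its part in the falls of the members was not tested. Time and harvest cannot be told apart in this design, and in bulk RNA neither can fewer cells of a kind and less RNA per cell.

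The comparison of guides asks what ZBTB11 knockdown does beyond DOX itself, by the mean DOX minus DMSO change of both ZBTB11 guides minus that of sgNS. At day 5 this net change was lower for 16 members, higher for 1 and did not pass for 17, against 19.2% of all 16809 genes called (10.3% lower and 8.95% higher; edgeR quasi-likelihood test). The median of the members was -0.14 and that of all genes 0.00. Among mitochondrial members 14 of 28 were lower and 1 higher, and among the cytosolic ones 2 of 6 were lower, GOT1 (-0.31, SE 0.0676, adjusted p = 0.000575) and ACLY (-0.11, SE 0.038, 0.0404). In limma on log2(TPM + 1) ACLY was at 0.14, where the median of all genes was 0.19.

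By step, the net decreases were both pyruvate carrier genes, all 3 succinyl-CoA ligase genes, SDHA, SDHB and SDHC of succinate dehydrogenase, MDH2, CS, IDH3B, both aspartate aminotransferases, ACLY, and PDHB and DLD of the pyruvate dehydrogenase complex. Of these CS, SUCLG1, GOT2, PDHB and ACLY were above 0 in limma on log2(TPM + 1), but below the median of all genes there, 0.19. Leaving out 1 library ended 3 of the calls of a net decrease. For ACLY this held in 10 runs: sgNS DMSO replicate 1 or DOX replicate 1 or 3, sgZBTB11 #1 DMSO replicate 1 or 2 or DOX replicate 1 or 3, and sgZBTB11 #2 DMSO replicate 1 or DOX replicate 1 or 3 (adjusted p = 0.0504 to 0.167). For PDHB it held in 12 runs: sgNS DMSO replicate 1 or 3 or any DOX replicate, sgZBTB11 #1 DMSO replicate 2 or DOX replicate 1 or 3, and sgZBTB11 #2 DMSO replicate 1 or 2 or DOX replicate 2 or 3 (0.0527 to 0.157). For SUCLG1 it held in 5 runs: replicate 1 of sgNS with DMSO or DOX, sgZBTB11 #1 DMSO replicate 2 or DOX replicate 1, and sgZBTB11 #2 DOX replicate 2 (0.0529 to 0.129). SUCLG2 was at -0.57 (SE 0.0963, adjusted p = 7.79e-06), MDH2 at -0.55 (SE 0.0521, 2.27e-12), MPC2 at -0.48 (SE 0.0806, 6.21e-06) and SUCLA2, the ATP-forming ligase subunit, at -0.47 (SE 0.0965, 0.000191). PDP1, the phosphatase that switches pyruvate dehydrogenase on, was the 1 member that was higher, at 0.20 (SE 0.0569, 0.00925).

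By the medians of the members, the net change set a rise in sgNS against a small change or a fall in the ZBTB11 guides. Fewer members rose past the threshold in sgNS than were lower net of it, so not every net decrease came with such a call. In sgNS DOX raised 13 members and lowered 1, against 17.3% of all genes called. In sgZBTB11 #1 0 of 34 passed in edgeR, 3 had an unadjusted p under 0.05, 0 passed in DESeq2 or limma, and 1.14% of all genes were called. In sgZBTB11 #2 11 members fell and none rose, against 9% of all genes called. Median changes of the members were 0.11, -0.03 and -0.11 in the order sgNS, sgZBTB11 #1 and sgZBTB11 #2. The net values of both ZBTB11 guides share the sgNS libraries.

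MDH2 shows this in each library. With DMSO its CPM at day 5 was 64.3, 73.8 and 67.5 in sgNS, 66.9 and 64.9 in sgZBTB11 #1, and 72.1, 74.9 and 73.1 in sgZBTB11 #2. With DOX it was 89.3, 91.4 and 88.9 in sgNS, 63.2, 61.6 and 63.2 in sgZBTB11 #1, and 58.7, 62.3 and 61.6 in sgZBTB11 #2. The sgNS DOX libraries stood above all other libraries of the day, and the DOX libraries of both ZBTB11 guides lay below the DMSO libraries of their own line. DOX raised MDH2 by 0.39 in sgNS (SE 0.0405, adjusted p = 1.07e-10) and lowered it in sgZBTB11 #2 (-0.27, SE 0.0431, 5e-06), and it was at -0.07 in sgZBTB11 #1 (SE 0.049), which did not pass.

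SUCLG2 differed from MDH2 in that neither ZBTB11 guide passed. With DMSO it was 16.3, 15.5 and 13.8 CPM in sgNS, 17.6 and 17.99 in sgZBTB11 #1, and 16.5, 16.97 and 16.2 in sgZBTB11 #2. With DOX it was 20.4, 20.8 and 22.6 in sgNS, 16.8, 15.04 and 17.04 in sgZBTB11 #1, and 16.5, 14.97 and 16.8 in sgZBTB11 #2. The sgNS DOX libraries were again above all others, at 0.49 over DMSO (SE 0.0759, adjusted p = 1.56e-06), and the changes of -0.12 and -0.04 in the ZBTB11 guides did not pass.

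MPC2 of the pyruvate carrier had a similar layout. With DOX it was 35.3, 35.3 and 34.5 CPM in sgNS, against 25.6, 26.8 and 27.1 with DMSO, a rise of 0.39 (SE 0.0635, adjusted p = 3.8e-06). With DOX it was 26.1 to 29.8 in sgZBTB11 #1 and 26.5 to 27.8 in sgZBTB11 #2, within or near the range with DMSO, 27 to 30.2 and 26.4 to 32. Neither ZBTB11 guide passed for MPC2 or MPC1.

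SUCLA2 and SDHC fell in sgZBTB11 #2 and rose in sgNS. SUCLA2 was 18.9, 19.7 and 21.8 CPM with DMSO there and 15.5, 16.5 and 15.2 with DOX, a log2 change of -0.35 (SE 0.0792, adjusted p = 0.00137). SDHC was 112, 108 and 119 with DMSO and 94.3, 87.3 and 90.2 with DOX, a change of -0.32 (SE 0.0376, 5.1e-09). DMSO and DOX libraries did not overlap for either gene, nor for IDH3B, a regulatory subunit of the NAD-dependent isocitrate dehydrogenase, at -0.29 (SE 0.0521, 4.78e-05). In sgNS SUCLA2 was 15.5, 18.3 and 16.6 with DMSO and 21.5, 17.97 and 20.4 with DOX, which overlapped. Its change there was 0.25 in edgeR (SE 0.0773, adjusted p = 0.0151), a call lost without sgNS DMSO or DOX replicate 1 or 3 (0.0604 to 0.136). In limma on log2(TPM + 1) this change was -0.0037, where the median of all genes was -0.16. In sgZBTB11 #1 SUCLA2 was at -0.08 in edgeR (SE 0.084, 0.792), and the guides did not differ past the threshold (-0.27, SE 0.115, 0.246).

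In sgZBTB11 #1 SDHC was 108 and 112 with DMSO and 109, 107 and 106 with DOX, and in sgNS it rose by 0.22 (SE 0.0363, adjusted p = 4.8e-06). The test of the difference between the ZBTB11 guides called 2 members at day 5, SDHC (-0.29, SE 0.056, 0.000652) and SDHA (-0.23, SE 0.0605, 0.0203), against 2.58% of all genes. SDHA lost this call on leaving out either DMSO library of sgZBTB11 #1, or replicate 1 or 3 with DMSO or replicate 1 with DOX of sgZBTB11 #2 (adjusted p = 0.0589 to 0.109). ZBTB11 itself fell more with sgZBTB11 #2, a log2 change of -0.90 (SE 0.0586), than with sgZBTB11 #1, -0.42 (SE 0.0635), and the difference was -0.48 (SE 0.0868, 0.000258).

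PDP1 was the 1 member lower with DOX in sgNS at day 5. It fell by 0.14 (SE 0.0453, edgeR adjusted p = 0.0253), a call that was lost without sgNS DMSO replicate 1 or DOX replicate 1 or 3 (0.0589 to 0.206), and did not pass in sgZBTB11 #1 (0.14, SE 0.0536) or sgZBTB11 #2 (-0.03, SE 0.0428). Its DMSO levels differed between lines, at 68.2, 61.6 and 62.5 CPM in sgNS, 51.6 and 52.1 in sgZBTB11 #1, and 74.3, 78.9 and 71.97 in sgZBTB11 #2. Without sgNS DMSO replicate 1 its net call was lost too (0.0643). IDH1 did not pass net of sgNS and fell in sgZBTB11 #2 by 0.17 (SE 0.0462, 0.0121), a call lost without sgZBTB11 #2 DMSO replicate 2 or DOX replicate 1 or 3 (0.0533 to 0.114).

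**Figure D3:**
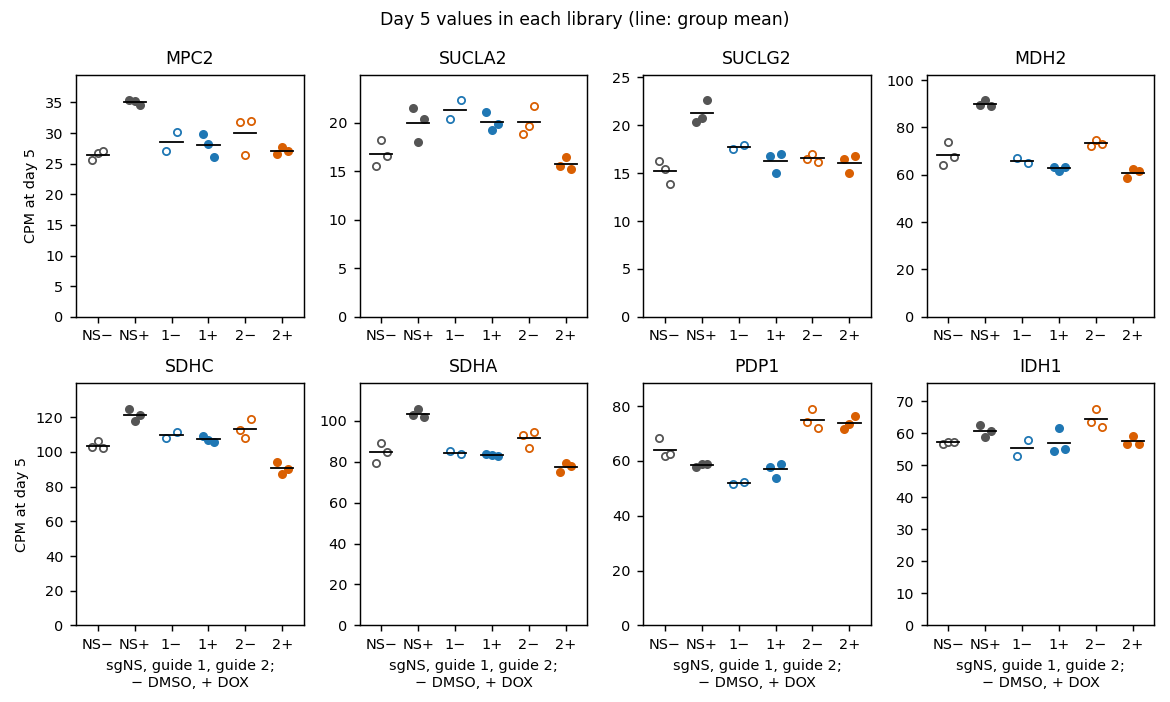
Each panel gives the CPM of 1 member in each day 5 library, with DMSO as open and DOX as filled circles and the group mean as a line, for sgNS (gray), sgZBTB11 #1 (blue) and sgZBTB11 #2 (orange). The filled gray circles of MPC2, SUCLG2, MDH2 and SDHA stand above all others, and the filled orange circles of SUCLA2, SDHC and SDHA stand below their open ones.

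The day 5 calls differed in limma on log2(TPM + 1). It has another scale, length correction, filter and test, and no scaling between libraries beyond TPM itself. RLE scaling of the counts left 16 lower and 1 higher net of sgNS. In limma on log2(TPM + 1), where the median of all genes was 0.19 net and -0.16 in sgNS, the members stood at 0.06 and -0.08, so their distance from all genes was -0.12 and 0.07. There 4 members were higher and 3 lower net of sgNS. The members that kept a lower call were MDH2 (-0.32, adjusted p = 0.00107), SUCLG2 (-0.27, 0.0409) and SDHA (-0.23, 0.0206), and PDP1 stayed higher (0.40, 0.000975). In sgNS 1 member was then higher, MDH2 (0.18, 0.00755), and 8 lower. The share of counts from mitochondrial DNA was 26.3% with DMSO and 29.5% with DOX in sgNS, 33.6% and 33% in sgZBTB11 #1, and 31.3% and 31.4% in sgZBTB11 #2, and its part in these changes was not tested. Without sgNS DOX replicate 1 the 14 calls in sgNS became 8, and without sgZBTB11 #2 DOX replicate 1 the 11 calls in that line became 7.

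At 5 hr members also changed with DOX, when ZBTB11 itself was at 0.17 in sgNS (SE 0.0463, edgeR adjusted p = 0.00297), -0.0035 in sgZBTB11 #1 (SE 0.0451, 0.962) and -0.17 in sgZBTB11 #2 (SE 0.0467, 0.00723). In sgNS 14 rose and 5 fell, against 40.9% of all 15623 genes called. In sgZBTB11 #1 12 rose and 3 fell, against 32.8%, and in sgZBTB11 #2 5 fell and 0 rose, against 17%. Net of sgNS 2 were higher and 8 lower, against 30%. These splits were others in limma on log2(TPM + 1): there, where the median of all genes was 0.17 in sgNS and -0.13 net, 27 rose and 0 fell in sgNS, 21 rose and 1 fell in sgZBTB11 #1, 0 rose and 6 fell in sgZBTB11 #2, and 0 were higher and 20 lower net of sgNS.

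DLAT and PDP1 of the pyruvate dehydrogenase complex were the largest changes in sgNS at 5 hr. DLAT was 36.3, 36.8 and 41.3 CPM with DMSO and 51.9, 48.9 and 52.5 with DOX in sgNS, 42.5, 41.01 and 42.6 against 53.9, 51.1 and 49.2 in sgZBTB11 #1, and 48.6, 49.7 and 46.3 against 41.8, 40.6 and 39.7 in sgZBTB11 #2. DMSO and DOX did not overlap in any line, with DOX above in sgNS and sgZBTB11 #1 and below in sgZBTB11 #2. The log2 changes were 0.45 (SE 0.0514, adjusted p = 2.65e-09), 0.30 (SE 0.0493, 8.75e-06) and -0.23 (SE 0.0508, 0.000902), and the difference between the ZBTB11 guides was -0.53 (SE 0.0708, 1.2e-07). That difference passed for 20 members, 2 higher and 18 lower in sgZBTB11 #2, against 35.1% of all genes (0 and 21 in limma on log2(TPM + 1), 0 and 15 in DESeq2, and 0 and 17 without the filter on low counts). The 2 higher ones were MPC2 and DLST. MPC2 lost its call without replicate 2 of either sgZBTB11 #1 group (0.0604 to 0.0815), and DLST in 10 runs that each left out 1 library: sgNS DOX replicate 3, sgZBTB11 #1 DMSO replicate 1 or 3 or DOX replicate 2 or 3, or sgZBTB11 #2 DMSO replicate 1 or 2 or any DOX replicate (0.0517 to 0.116).

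PDP1 rose by 0.39 in sgNS (SE 0.0448, adjusted p = 2.34e-09), did not pass in sgZBTB11 #1 (0.08) and fell in sgZBTB11 #2 (-0.35, SE 0.0435, 1.88e-07), and its net change was -0.53 (SE 0.0545, 1.04e-09). ACO1 rose in sgNS (0.29, SE 0.0692, 0.000611), as did IDH1 (0.27, SE 0.0604, 0.000277). Net of sgNS they were at -0.27 (SE 0.0855, 0.012) and -0.27 (SE 0.0743, 0.00374), and without sgNS DMSO replicate 2 IDH1 lost its net call (0.0528). The carrier genes were lower in sgNS, MPC1 at -0.27 (SE 0.0703, 0.0021) and MPC2 at -0.23 (SE 0.0408, 1.13e-05). In limma on log2(TPM + 1) MPC2 was at 0.09 in sgNS, where the median of all genes was 0.17.

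In sgZBTB11 #1 ME1 rose most at 5 hr (0.30, SE 0.0723, adjusted p = 0.00129), ahead of DLAT, SUCLG2 (0.22, SE 0.0548, 0.00171) and SDHAF2, the factor that helps attach FAD to SDHA (0.21, SE 0.0617, 0.00585). In sgZBTB11 #2 the falls after PDP1 were PDHX, the protein that binds DLD to the complex (-0.25, SE 0.0421, 2.59e-05), DLAT, and SUCLA2 (-0.17, SE 0.0486, 0.012). ME2 was the remaining fall of sgZBTB11 #2, at -0.14 (SE 0.0364, 0.00501). The falls in this line were 5 of 34 members, a share not above the 17% of all genes called there. Without sgZBTB11 #2 DOX replicate 2 SUCLA2 lost its call (0.0698), without sgZBTB11 #1 DMSO replicate 2 so did SDHAF2 (0.0571), and without sgNS DMSO replicate 3 the calls in sgZBTB11 #2 became 8. The share of counts from mitochondrial DNA was 14.1% with DMSO and 12.1% with DOX in sgNS, 14.1% and 12.3% in sgZBTB11 #1, and 12.6% and 13.3% in sgZBTB11 #2, and its part was not tested.

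**Figure D4:**
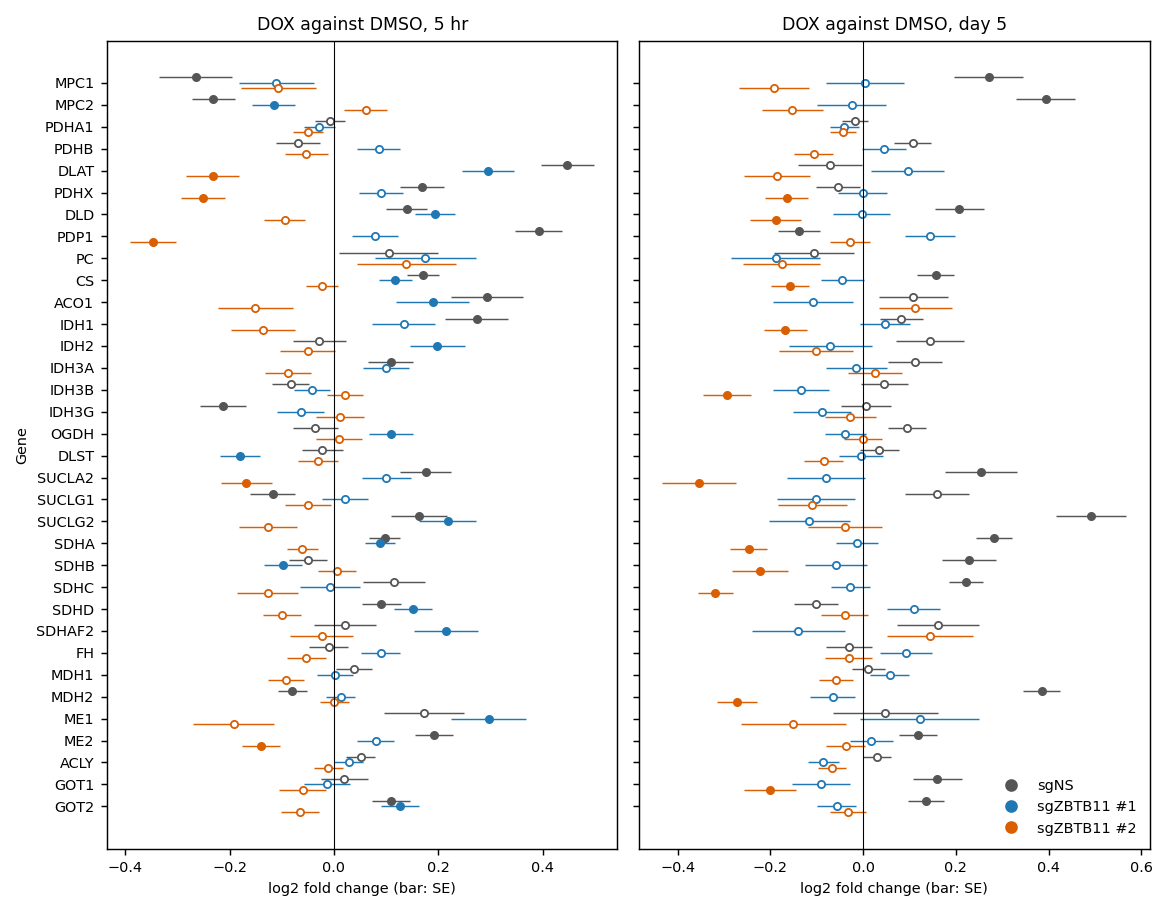
Points are the log2 change with DOX against DMSO of each member at 5 hr (left) and day 5 (right) with its standard error, filled where the adjusted p was under 0.05, for sgNS (gray), sgZBTB11 #1 (blue) and sgZBTB11 #2 (orange). At 5 hr the gray and blue points of DLAT lie to the right and the orange point to the left; at day 5 gray points lie to the right of orange ones for MPC2, SUCLG2, MDH2 and SDHA, and all blue points are open.

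At day 1 and day 3 few members passed. Net of sgNS 0 of 34 passed at day 1 and at day 3 in edgeR, DESeq2 and limma, with 2 at an unadjusted p under 0.05 in edgeR at each time, against 0.0737% and 0.493% of all genes called. In sgZBTB11 #2 at day 1 IDH3B (-0.14, SE 0.0369, adjusted p = 0.0158), GOT2 (-0.10, SE 0.0311, 0.035) and MDH2 (-0.09, SE 0.0264, 0.0291) fell, against 7.88% of all genes. Leaving out 1 library of this line moved that count to 10 (DMSO replicate 1), 0 (DMSO replicate 2) or 1 (DMSO replicate 3 and each DOX replicate). In sgNS 0 of 34 passed at day 1 (2.19% of all genes; 4 unadjusted, 0 in DESeq2 and limma), and in sgZBTB11 #1 0 (4.84%; 8 unadjusted, 1 in DESeq2, 0 in limma, and 1 without any 1 of the sgZBTB11 #2 DMSO replicates).

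At day 3 MDH2 was the 1 member called within a line. It fell in sgNS (-0.16, SE 0.0354, adjusted p = 0.0151), against 0.877% of all genes, and in sgZBTB11 #2 (-0.21, SE 0.0339, 0.000166), against 1.17%. In sgZBTB11 #1 0 of 34 passed in edgeR, DESeq2 or limma and 0 had an unadjusted p under 0.05, against 0.733%. The call in sgNS was lost without sgNS DMSO replicate 1 or 3 or DOX replicate 1 or 2, each left out in turn (0.0588 to 0.104). The guides did not differ for any member past the threshold at day 1 (0.0614% of all genes; 4 unadjusted) or day 3 (0.018%; 5 unadjusted), with 0 in DESeq2 and limma.

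With DMSO alone, averaged over all times from 5 hr to day 5, the lines differed in some members without induction. Such an average can hide line differences that change with time, as for GOT2 to GOT1 above. Against sgNS 6 members were higher and 10 lower in sgZBTB11 #1 (30% of all genes called) and 8 higher and 4 lower in sgZBTB11 #2 (18.8%), where limma on log2(TPM + 1) gave 8 and 0. SUCLG1 was at -0.20 (SE 0.0282, edgeR adjusted p = 6.56e-08) and GOT2 at 0.20 (SE 0.0204, 2e-11) in sgZBTB11 #1, and PDP1 at 0.27 (SE 0.0246, 8.86e-13) in sgZBTB11 #2. In sgZBTB11 #1 SUCLA2 (0.19, SE 0.0327, 6.62e-06) and IDH2 (-0.17, SE 0.0327, 4.55e-05) came next, and in sgZBTB11 #2 PDHX (0.13, SE 0.0256, 0.000105), SUCLA2 (0.13, SE 0.0314, 0.00171) and MPC1 (-0.11, SE 0.0374, 0.0288). MPC1 lost this call in 8 runs that each left out 1 library: sgNS 5 hr replicate 1, day 1 replicate 2 or day 3 replicate 3, or sgZBTB11 #2 5 hr replicate 2 or 3, day 1 replicate 2, day 3 replicate 2 or day 5 replicate 3 (0.0511 to 0.102).

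Other genes around the cycle were taken from a list of 28, of which 27 were tested in the DMSO time course and at day 5 and 26 at the other times. From day 1 to day 3 9 of these rose and 16 fell, against the 79.8% of all genes called in this step. LDHA, which turns pyruvate into lactate, fell with the mitochondrial genes, from a median of 899 CPM (879 to 1059) to 404 (371 to 450), a change of -1.20 (SE 0.0163, edgeR adjusted p = 4.43e-52). PDK4, a kinase that switches pyruvate dehydrogenase off, rose by 1.41 (SE 0.078, 2.07e-23). ME3 had the largest fitted change, at a median CPM of 0 at day 1 and 0.152 at day 3, so no fold is given.

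At day 5 2 of the 27 were higher and 7 lower net of sgNS, against 19.2% of all genes called. SDHAF3, an assembly factor of succinate dehydrogenase, was at -0.68 (SE 0.11, edgeR adjusted p = 3.83e-06), PCK2, which makes phosphoenolpyruvate in mitochondria, at -0.40 (SE 0.0927, 0.000923), and LDHA at -0.39 (SE 0.0329, 7.7e-14). SDHAF3 rose in sgNS (0.35, SE 0.0862, 0.00256) and fell in sgZBTB11 #2 (-0.57, SE 0.0957, 1.95e-05), and LDHA did likewise (0.32, SE 0.0261, 3.36e-14, and -0.16, SE 0.0266, 2.22e-05). At 5 hr 7 of 26 were higher and 2 lower net of sgNS, near the 30% of all genes called.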

How the data were processed

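RNA-seq of 70 libraries was deposited by the authors as RSEM expected counts and TPM per gene on GRCh38.p14, per the submitters' processing notes; neither notes nor labels name the RSEM version, aligner, annotation or strandedness. Expected counts were rounded (5.13% were not whole). edgeR 4.0.16 (R 4.3.3) was run with TMM, filterByExpr and robust quasi-likelihood tests, 1 fit per time and 1 of all DMSO libraries, with Benjamini-Hochberg adjustment over all genes tested and a threshold of 0.05. CPM were TMM-scaled over all libraries. Alternatives were DESeq2 1.42.0, RLE scaling, no filter, removal of a length trend, 1 fit of all libraries, a replicate block, limma 3.58.1 on log2(TPM + 1) (genes reaching a TPM of 1 in 3 libraries, without TMM or other scaling between libraries), and omission of every library in turn.

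Among 68 replicate pairs 0 held identical values, and chi-square per degree of freedom was 1.33 to 4.93, so all libraries were kept. For each comparison up to 4 members with the largest change past the threshold were named, and up to 3 of the other pathway genes, along with the isoform pairs and ZBTB11. Other genes were named after their values were seen. Members and lists were chosen with earlier results of these data known. On simulated counts with 50 changed genes of each size, a log2 change of 0.25 was recovered for 40% and 0.5 for 88% in the net change at day 5 (16523 genes), and for 90% and 100% from day 1 to day 3 with DMSO (16876 genes). In the net change at day 3 (16400 genes) these shares were 36% and 78%, so small net changes there could go uncalled. In the data a larger part of all genes was called at day 5 and over time than was changed in the simulation. The simulated shares for those comparisons need not hold in the data. One gene of the list of other genes around the cycle enters its counts but is not reported here by name.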

Additional observations from a re-analysis of the deposited data

Results flagged for a closer look

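The DOX change of sgZBTB11 #2 minus that of sgZBTB11 #1 passed the test (edgeR quasi-likelihood, adjusted p under 0.05) for 20 members at 5 hr and 2 at day 5. At 5 hr the pyruvate entry genes were at 0.18 for MPC2, -0.53 for DLAT, -0.34 for PDHX, -0.29 for DLD and -0.43 for PDP1. The first cycle steps were at -0.14 for CS, -0.34 for ACO1, -0.27 for IDH1, -0.25 for IDH2 and -0.19 for IDH3A. Later steps were at 0.15 for DLST, -0.27 for SUCLA2, -0.34 for SUCLG2, -0.15 for SDHA, -0.25 for SDHD, -0.24 for SDHAF2 and -0.14 for FH. The genes around malate and aspartate were at -0.49 for ME1, -0.22 for ME2 and -0.19 for GOT2. At day 5 SDHA was at -0.23 and SDHC at -0.29. In limma on log2(TPM + 1) MPC2 and DLST at 5 hr were below 0 and SDHA above 0, where the median of all genes was -0.10.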

How the results depend on the processing

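Of 232 calls of a member in a comparison, 225 kept direction and threshold in 1 fit of all 70 libraries, 229 with RLE scaling, 215 without the filter, 209 in DESeq2, 203 with the length trend removed and 150 in limma on log2(TPM + 1). The causes were not tested. Replicate numbers did not pair the libraries (median correlation of same-numbered deviations 0.02 at 5 hr); with a replicate block 231 calls stayed, with 16 members net at day 5 against 17. Fixed lengths gave an MDH2 to MDH1 ratio of 0.3893 at day 5.

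Counts of members called changed as follows. In limma on log2(TPM + 1) they were 20 net at 5 hr, 7 net at day 5, 9 in sgNS at day 5, 0 in sgNS at day 3, 0, 0 and 2 in sgZBTB11 #2 at days 1, 3 and 5, and 0 for the guide difference at day 5. The fit of all libraries gave 1 for that difference and 3 in sgZBTB11 #1 at day 1, where DESeq2, RLE and the length trend each gave 1. With the length trend removed sgNS had 2 at day 3 and sgZBTB11 #2 had 9 at 5 hr.

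Leaving out each library, in the order 5 hr, day 1, day 3 and day 5, gave 10 to 12, 0 to 0, 0 to 0 and 13 to 19 net; 15 to 19, 0 to 0, 0 to 1 and 8 to 15 in sgNS; 11 to 19, 0 to 1, 0 to 0 and 0 to 0 in sgZBTB11 #1; 5 to 8, 0 to 10, 1 to 1 and 7 to 11 in sgZBTB11 #2; and 18 to 21, 0 to 0, 0 to 0 and 1 to 3 for the guide difference. With DMSO it gave 24 to 28, 29 to 31 and 31 to 31 for the steps in time, and 14 to 17 and 8 to 13 for sgZBTB11 #1 and #2 against sgNS.

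These signs reversed in limma on log2(TPM + 1), where the median of all genes was itself off 0. With DMSO it was 0.13 from 5 hr to day 1 and -0.18 from day 3 to day 5. At day 5 it was 0.19 net and -0.16 in sgNS. At 5 hr it was 0.17 in sgNS, 0.08 in sgZBTB11 #1, -0.13 net and -0.10 for the guide difference. The values below that are net at day 5 all lay under their median, and those in sgNS at day 5 all lay over theirs. From 5 hr to day 1 with DMSO ACLY was 0.0833, PDHA1 0.058, PDHX 0.1466, SDHA -0.0901 and SDHC 0.0064, and from day 3 to day 5 DLST was -0.1217, IDH3G -0.0471, PC -0.0741, PDHX -0.0807 and SDHB 0.3083. Net at day 5 ACLY was 0.1385, CS 0.0245, GOT2 0.0795, PDHB 0.0971 and SUCLG1 0.0111. In sgNS at day 5 CS was -0.0803, GOT1 -0.0217, GOT2 -0.0758, ME2 -0.0618 and SUCLA2 -0.0037. In sgNS at 5 hr IDH3G was 0.0095, MDH2 0.1161, MPC2 0.091, SDHA -0.0329 and SUCLG1 0.1018, in sgZBTB11 #1 MPC2 0.056, SDHA -0.1227 and SDHB 0.0449, net MPC2 -0.0712, and for the guide difference DLST -0.0099, MPC2 -0.0723 and SDHA 0.0982. SDHA in sgZBTB11 #1 against sgNS was 0.005. With the length trend removed ACLY from day 3 to day 5 was 0.0097.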
